A study of Mus musculus with 3 samples.

Results

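The S100 genes encode small calcium-binding proteins, and the 10 described here were chosen by name, with their values on these arrays already known: S100a8, S100a9, S100a1, S100a3, S100a4, S100a6, S100a10, S100a11, S100a13 and S100b. Of these, 9 had a probe set among the 25206 of the value table, and 7 had a mean over the 3 arrays at or above the level minimum of 4.553 (log2), the median of the named genes, which 11593 of 23185 named genes reached. S100a11 had no probe set of its own in the value table used here. S100a3 and S100b lay below the minimum on every array.

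The cells were long-term haematopoietic stem cells of mouse bone marrow, sorted as positive for ckit, Sca and CD150 and negative for Lin, Flk2 and CD48, and kept overnight in Stemspan SFEM medium. They received 0, 0.02 or 2.5 Gy of gamma radiation, and RNA was taken 2 hours later. Each dose is 1 array and the cells at 0 Gy are called unirradiated, so every difference below lies between single arrays, without a replicate check or a test. The sources used here do not give mouse strain, age or the number of animals behind each array. Kit was at 8.58, 8.78 and 8.50 (log2 at 0, 0.02 and 2.5 Gy), and all 13 measured stem cell markers passed the level minimum. Among them Slamf1, which encodes CD150, was at 5.24, 4.75 and 4.84. Of the genes sorted against, Cd48 lay below the minimum on every array at 3.62, 3.31 and 3.40, while Flt3, which encodes Flk2, lay above it on every array at 4.60, 4.95 and 4.93.

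S100 proteins carry a pair of EF-hand motifs, which bind calcium, and most act as dimers that change shape on binding it and then attach to target proteins. S100a8 and S100a9 pair to form calprotectin, which fills the cytoplasm of neutrophils and also binds zinc and manganese. Released from stressed or dying cells, calprotectin acts as an alarmin, a danger signal read by the Toll-like receptor TLR4 and by RAGE, the receptor encoded by Ager. Other S100 proteins work mainly inside the cell, on the cytoskeleton, on annexins at membranes and on calcium handling.

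S100a8 and S100a9 stood at least 2-fold higher on both irradiated arrays than on the unirradiated array, and the other S100 genes did not. S100a8 (Entrez gene 20201), the smaller calprotectin subunit, was at 5.57 (log2) in unirradiated cells, 6.87 at 0.02 Gy and 6.81 at 2.5 Gy. The 2 irradiated arrays lay close together and the unirradiated array lay below them. The differences were 1.30 (2.47-fold) for 0.02 Gy minus unirradiated, 1.24 (2.36-fold) for 2.5 Gy minus unirradiated and −0.06 for 2.5 Gy minus 0.02 Gy.

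S100a9 (20202), the larger calprotectin subunit, was at 6.82 in unirradiated cells, 7.94 at 0.02 Gy and 8.38 at 2.5 Gy. The order of the arrays followed dose, with the smaller step between the 2 irradiated arrays. Its differences were 1.12 (2.18-fold) for 0.02 Gy minus unirradiated, 1.56 (2.94-fold) for 2.5 Gy minus unirradiated and 0.43 for 2.5 Gy minus 0.02 Gy. After quantile normalization or loess scaling of the arrays, the 0.02 Gy difference of S100a9 was 0.94 and 0.90, below 2-fold.

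For scale, genes of like level had a robust SD of 0.34 in 0.02 Gy minus unirradiated for both genes, and of 0.31 (S100a8) and 0.33 (S100a9) in 2.5 Gy minus unirradiated. This is a spread between genes, not a replicate error. Counted from the highest difference among 11593 genes, S100a8 held rank 50 and S100a9 rank 94 at 0.02 Gy, and ranks 68 and 35 at 2.5 Gy. In 2.5 Gy minus 0.02 Gy, which does not use the unirradiated array, they held ranks 6720 and 1232. Both comparisons with unirradiated cells share that 1 array, so a low reading on it would enter both differences of a gene alike; this cannot be told apart from a difference common to both doses.

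**Figure D1:**
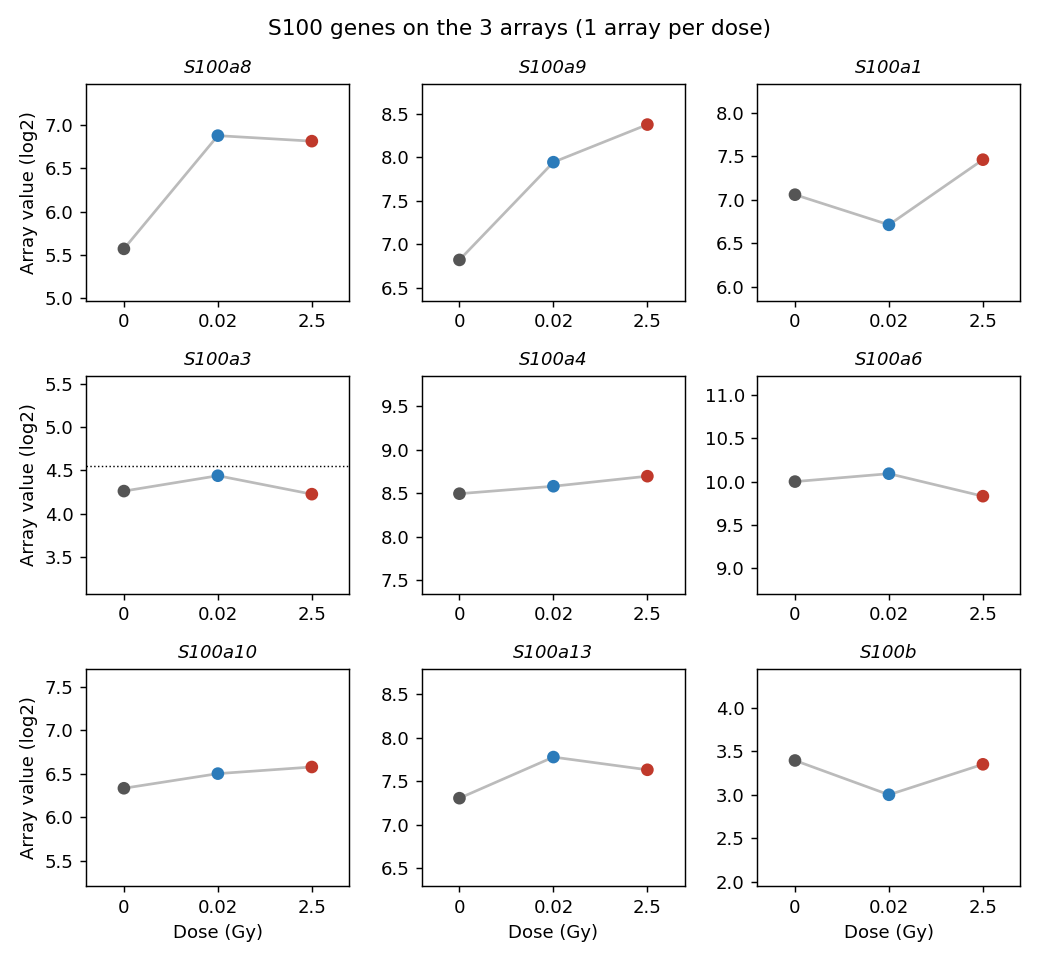
Array values (log2, vertical axis, each panel spanning the same range) of the 9 measured S100 genes at 0, 0.02 and 2.5 Gy, with 1 point per array; the dotted line in the S100a3 panel is the level minimum of 4.553. S100a8 and S100a9 are lowest on the unirradiated array, at 5.57 and 6.82, and the other genes span less than 1 log2 unit.

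Of the 7 genes past the level minimum, 2 passed 2-fold upwards and 0 downwards at 0.02 Gy, where 1.33% and 1.14% of all genes past the minimum did. At 2.5 Gy the counts were again 2 and 0, beside 1.15% and 0.578% of all genes. In 2.5 Gy minus 0.02 Gy they were 0 and 0, beside 1.44% and 1.06%. The S100 genes had been chosen with these differences known, so the counts are a description. Their median difference was 0.17 at 0.02 Gy and 0.33 at 2.5 Gy, beside 0.04 and 0.02 for all genes past the minimum. Without S100a8 and S100a9 the medians of the other 5 were 0.09 and 0.24. After quantile normalization and loess the median of the 7 was 0.02 under each at 0.02 Gy, and 0.14 and 0.15 at 2.5 Gy.

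**Figure D2:**
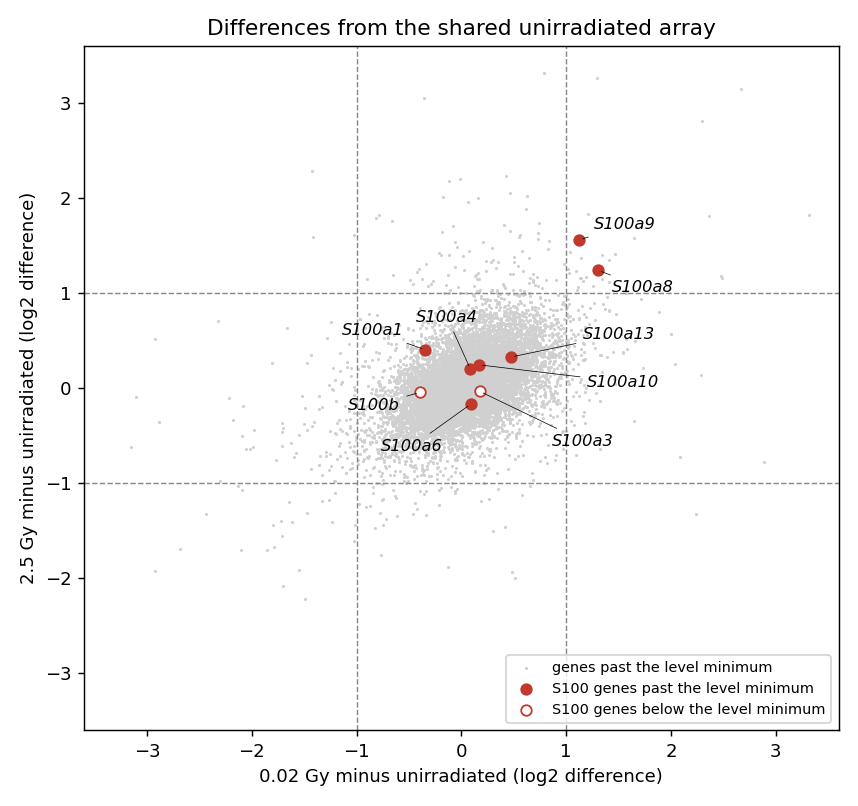
Differences from the unirradiated array (log2), 0.02 Gy on the horizontal and 2.5 Gy on the vertical axis, for genes past the level minimum (grey), the 7 S100 genes past it (filled) and the 2 below it (open); dashed lines mark 2-fold. S100a8 at 1.30 and 1.24 and S100a9 at 1.12 and 1.56 lie past the upper and the right dashed line. The other S100 genes lie inside the dashed lines, and both axes share the unirradiated array.

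In RefSeq (GRCm38.p6) S100a8 and S100a9 are neighbours at the end of a run of 12 S100 genes on chromosome 3 and lie on opposite strands, pointing towards each other. The 270 bases around their annotated starts, 250 before and 20 after, are shown because both genes stood higher on the irradiated arrays; those of S100a6 and S100a4, in the same run and within 2-fold on all arrays, are shown beside them. Letters in capitals are matches, on either strand, to 5 short motifs: TTGCNNAA (C/EBP), GGNNTTTCC (NF-κB), GAGGAA (PU.1), TGANTCA (AP-1) and TATAAA, the TATA box. The motifs were chosen after the windows had been read, and several others, such as the Sp1 motif GGGCGG, were looked at and are not given.
S100a8 (chr3:90668821-90669090, plus strand): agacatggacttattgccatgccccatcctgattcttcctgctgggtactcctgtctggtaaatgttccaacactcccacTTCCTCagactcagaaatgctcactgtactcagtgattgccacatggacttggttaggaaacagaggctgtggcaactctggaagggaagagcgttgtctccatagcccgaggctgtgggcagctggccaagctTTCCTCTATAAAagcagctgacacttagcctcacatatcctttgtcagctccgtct
S100a9 (chr3:90695702-90695971, minus strand): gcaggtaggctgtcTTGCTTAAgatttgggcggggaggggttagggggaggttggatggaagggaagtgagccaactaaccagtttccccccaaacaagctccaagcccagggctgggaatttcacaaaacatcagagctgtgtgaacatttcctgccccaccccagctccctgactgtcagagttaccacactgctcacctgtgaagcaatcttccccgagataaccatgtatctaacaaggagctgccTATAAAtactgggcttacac
S100a6 (chr3:90612644-90612913, plus strand): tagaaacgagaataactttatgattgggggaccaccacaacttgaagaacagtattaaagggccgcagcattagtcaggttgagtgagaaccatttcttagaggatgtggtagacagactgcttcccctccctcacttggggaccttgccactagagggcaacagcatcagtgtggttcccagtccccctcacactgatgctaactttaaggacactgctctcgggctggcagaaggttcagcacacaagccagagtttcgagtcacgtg
S100a4 (chr3:90603520-90603789, plus strand): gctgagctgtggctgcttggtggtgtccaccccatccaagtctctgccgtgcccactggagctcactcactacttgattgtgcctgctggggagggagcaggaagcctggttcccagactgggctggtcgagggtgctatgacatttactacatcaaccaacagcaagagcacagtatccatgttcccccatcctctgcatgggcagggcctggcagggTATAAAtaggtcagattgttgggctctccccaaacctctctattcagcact

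The S100a8 window held TATAAA 30 bases before the start and GAGGAA on the opposite strand, printed as TTCCTC, beginning 170 and 36 bases before it. The second of these adjoins the TATA box. The S100a9 window held TTGCNNAA 236 bases before the start, and its TATAAA began at the annotated start itself. No motif other than the TATA box was found in both windows. S100a4 held TATAAA 31 bases before its start, and S100a6 held none of the 5 motifs. Among all 32851 windows of this length, 12.9% held the TATA box, 25.1% the PU.1 motif, 10.1% the C/EBP motif, 7.23% the AP-1 motif and 5.33% the NF-κB motif. These are letter matches only. Windows were at hand for 9 of the 10 genes, S100a11 among them, and the NF-κB motif matched none of these.

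Along the run of 12 genes, the remaining 10 lay between −0.77 and 0.47 at 0.02 Gy and between −0.69 and 0.40 at 2.5 Gy. S100a7a, the neighbour of S100a8 on the other side and an epidermal antimicrobial S100 gene, was at 4.93, 4.92 and 5.07 (log2 at 0, 0.02 and 2.5 Gy), a span well within 2-fold. The lowest difference at 0.02 Gy was that of S100a14 (−0.77; 3.88 at 0.02 Gy, against 4.65 unirradiated), and at 2.5 Gy that of S100a2 (−0.69; 3.96 at 2.5 Gy, against 4.65 unirradiated). The mean of each of these lay below the level minimum.

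**Figure D3:**
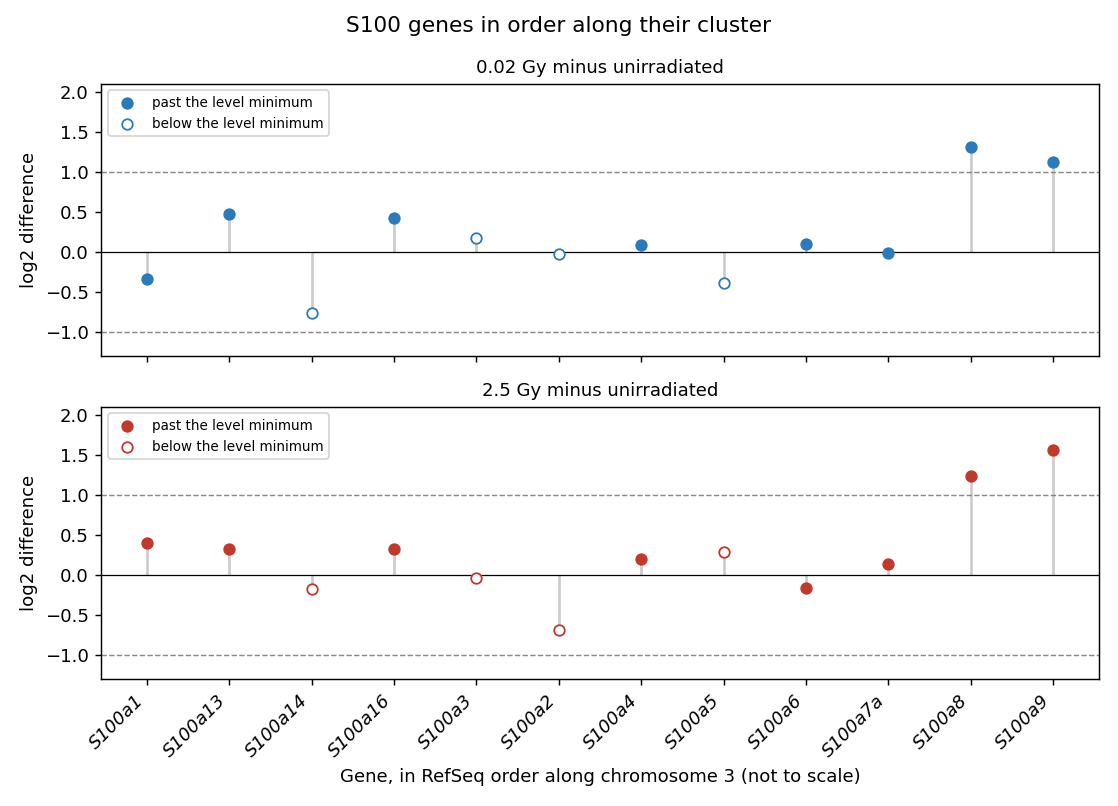
Differences from the unirradiated array (log2, vertical axis) at 0.02 Gy (top) and 2.5 Gy (bottom) for 12 S100 genes in their order along chromosome 3, filled where the mean passed the level minimum of 4.553 and open where it did not. S100a8 and S100a9, at the right end, pass the dashed 2-fold line in both panels, and the other 10 lie between −0.77 and 0.47.

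Among the intracellular S100 genes, S100a6 and S100a4 stayed within 2-fold on all 3 arrays. S100a6 (calcyclin, 20200), which binds annexins and the calcyclin-binding protein, was at 9.999, 10.09 and 9.83 (log2 at 0, 0.02 and 2.5 Gy). The differences were 0.09 at 0.02 Gy and −0.17 at 2.5 Gy. S100a4 (20198), which binds non-muscle myosin heavy chain and is known for its part in cell motility, was at 8.49, 8.58 and 8.69, with differences of 0.09 and 0.20. The sign of 3 of these 4 differences was not fixed: over the 4 scalings S100a6 ran from −0.15 to 0.16 and S100a4 from −0.16 to 0.15 at 0.02 Gy, and S100a4 from −0.01 to 0.25 at 2.5 Gy. S100a6 at 2.5 Gy stayed below 0 under each, from −0.42 to −0.12.

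S100a10 (p11, 20194), which joins annexin A2 at the plasma membrane and lacks working calcium binding, was at 6.33, 6.50 and 6.58. Its differences of 0.17 and 0.24 from unirradiated cells held their sign under all 3 other scalings, at 0.02 to 0.24 for 0.02 Gy and 0.12 to 0.29 for 2.5 Gy. S100a13 (20196), which takes part in the release of FGF1 and interleukin 1α from stressed cells, was at 7.31, 7.78 and 7.63. It was 0.47 higher at 0.02 Gy (1.39-fold) and 0.33 higher at 2.5 Gy than in unirradiated cells, the next highest 0.02 Gy difference after the calprotectin genes.

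S100a1 (20193), a regulator of calcium handling best known in heart muscle, was the S100 gene that differed most between the 2 doses. It was at 7.06 unirradiated, 6.71 at 0.02 Gy and 7.46 at 2.5 Gy. The 0.02 Gy array was thus the lowest and the 2.5 Gy array the highest. The difference of 2.5 Gy minus 0.02 Gy was 0.75 (1.68-fold; rank 332 of 11593 from the highest), while the differences from unirradiated cells were −0.35 and 0.40. Over all scalings the direct difference ran from 0.73 to 0.79. S100a1 and S100a13 lie next to each other on opposite strands, and the 270-base windows at their annotated starts overlap. The labels do not say which stretches of the 2 genes the probe sets read.

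S100a3 (20197), a cysteine-rich protein of hair cuticle cells, was at 4.26, 4.44 and 4.23. S100b (20203), a glial and melanocyte S100 gene and the only member outside chromosome 3, was at 3.40, 3.001 and 3.35. All of these values lay below the level minimum, where signal over background is unknown, so no difference is read from them. S100a11 itself was not measured, and the probe set named for its pseudogene S100a11-ps was at 5.38, 5.37 and 5.68. Which transcript that probe set reads is uncertain, since a processed copy can share sequence with its parent gene.

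The wider family gave no further gene past 2-fold. Of all genes past the level minimum, no more than 1.44% were 2-fold higher in any comparison, and no more than 1.14% lower. Of 25 genes listed as S100 genes or S100-fused epidermal genes, 24 were measured, and 15 of these were outside the 10 named above. Only 3 of the 15 passed the level minimum: S100a7a, S100a16 and Flg. S100a16, a widely expressed S100 gene, was at 4.89, 5.31 and 5.21, that is 0.42 and 0.32 above unirradiated cells. Flg, which encodes the skin barrier protein filaggrin, was at 4.69, 4.68 and 4.53.

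Genes through which released S100 proteins signal are given next. Of 12 receptor and adaptor genes, 6 passed the level minimum, with a median of 0.06 at 0.02 Gy and −0.04 at 2.5 Gy. None of the 6 was 2-fold higher or lower in either comparison with unirradiated cells. Of all genes past the minimum, 1.33% were 2-fold higher and 1.14% lower at 0.02 Gy, and 1.15% and 0.578% at 2.5 Gy. A count of 0 in 6 is thus near the share of all genes. The 0.02 Gy median was −0.07 after quantile normalization or loess, and the 2.5 Gy median 0.01 after median centring. Tlr4, the receptor gene for calprotectin, was at 5.85, 6.43 and 5.14. It was highest on the 0.02 Gy array and lowest on the 2.5 Gy array. The differences of Tlr4 were 0.58 and −0.71 from unirradiated and −1.29 for 2.5 Gy minus 0.02 Gy. In that last comparison 1 of the 6, Tlr4, was at least 2-fold lower, beside 1.06% of all genes past the minimum. Ager was at 5.61, 5.44 and 5.58, and the calprotectin receptor candidate Bsg, which encodes basigin, at 6.54, 6.64 and 6.75. Cd14, Ly96 and Myd88, whose products work with TLR4, lay below the level minimum on all arrays.

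Genes of S100 binding partners were within 2-fold in all 3 comparisons, as were nearly all genes past the level minimum. Of 13, 11 passed the level minimum, with 8 above 0 at 0.02 Gy (median 0.17) and 10 at 2.5 Gy (median 0.09), where 54.2% and 53.4% of all genes past the minimum were above 0. Anxa2, the partner of S100a10, was at 5.29, 5.20 and 5.36, and Cacybp, the partner of S100a6, at 4.74, 4.80 and 4.87. The highest difference was that of S100pbp, which encodes a nuclear S100P-binding protein in human, at 0.82 for 2.5 Gy minus unirradiated (6.38 at 2.5 Gy, against 5.56 unirradiated). Among other alarmin genes, 8 of 10 were measured and 2 passed the level minimum, Anxa1 (0.42 at 0.02 Gy and −0.11 at 2.5 Gy) and Hsp90aa1 (−0.25 and −0.34).

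Transcription factor genes known to act on S100a8 and S100a9 in myeloid cells were read on the same arrays. Of 10 listed, 9 were measured and 8 passed the level minimum. At 0.02 Gy all 8 were above 0, beside 54.2% of all genes past the minimum. Their median was 0.35 and their highest value 0.54 (Spi1, which encodes PU.1). After quantile normalization or loess 7 of 8 were above 0 and the median was 0.26 and 0.27. At 2.5 Gy 4 of 8 were above 0, beside 53.4% of all genes, and the median was 0.09. Rela, an NF-κB subunit gene, stood apart there, at 7.66 at 2.5 Gy against 6.18 unirradiated, a difference of 1.47. Cebpb, a C/EBP factor of myeloid cells, was at 6.01, 6.41 and 5.92, and Cebpa lay below the level minimum.

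Neutrophils and monocytes hold abundant S100a8 and S100a9 RNA, so markers of these cells were read beside them. In a bulk sample a few cells rich in a transcript and more transcript per cell cannot be told apart. Of 20 neutrophil genes, 19 were measured and 8 passed the level minimum. Of these 8, 0 were at least 2-fold higher or lower at either dose. Among all genes past the minimum, 1.33% were 2-fold higher and 1.14% lower at 0.02 Gy, and 1.15% and 0.578% at 2.5 Gy. A count of 0 in 8 is thus near the share of all genes. The mean over the 19 was 4.47 (log2), 4.39 and 4.31 on the unirradiated, 0.02 Gy and 2.5 Gy arrays. Most of the 19 lay below the minimum, so no difference is read from this mean. The median difference of the 8 was 0.01 at 0.02 Gy and −0.12 at 2.5 Gy. The part of such cells in the S100a8 and S100a9 differences was not tested.

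The late neutrophil granule genes Ngp, Ltf, Camp and Lcn2 were below the minimum on each of the arrays. Ngp was at 4.23, 3.32 and 3.31 (log2 at 0, 0.02 and 2.5 Gy), Ltf at 4.31, 3.80 and 4.27, Camp at 3.02, 3.38 and 2.73, and Lcn2 at 4.04, 4.27 and 4.16. The surface marker Ly6g, whose mean also lay below the minimum, was at 5.06, 4.33 and 4.21. No difference is read from these genes.

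Genes of early granules passed the minimum. Elane, which encodes neutrophil elastase, was at 4.96, 5.89 and 5.08, highest at 0.02 Gy (0.94). Mpo, which encodes myeloperoxidase, was at 5.29, 5.45 and 5.99, highest at 2.5 Gy (0.70). Prtn3, which encodes proteinase 3, was at 5.53, 5.60 and 5.47, and the cathepsin G gene Ctsg at 4.87, 4.80 and 4.67. Elane and Mpo were thus high on different irradiated arrays, and Prtn3 and Ctsg differed little. The other neutrophil genes past the minimum were Itgam (0.42 at 0.02 Gy and 0.01 at 2.5 Gy), Csf3r (−0.52 and −0.18), Cxcr2 (−0.04 and −0.26) and Chil3 (−0.16 and −0.18). All were within 2-fold in the deposited values; median centring of the arrays put 1 neutrophil gene, Elane, at the 2-fold line at 0.02 Gy. Of 10 monocyte genes, 9 were measured and 4 passed the minimum. Of these 4, 1 was above 0 at 0.02 Gy (median −0.18) and 3 at 2.5 Gy (median 0.32). Of all genes past the minimum, 54.2% and 53.4% were above 0. At 2.5 Gy 1 of the 4 was at least 2-fold higher, beside 1.15% of all genes. Ly6c2, a surface marker of inflammatory monocytes, was at 4.61, 5.18 and 5.65, with differences of 0.56 and 1.04, while Cd68 was at 6.03, 5.68 and 5.59 and Csf1r at 4.85, 4.58 and 5.03. Adgre1, a macrophage surface marker, was at 4.48, 4.38 and 4.93. It lay below the minimum at 0 and 0.02 Gy, and its mean passed only through the 2.5 Gy array. No difference is read from Adgre1 alone, though the counts and medians of the 4 include it. The mean over all 9, of which 5 lay below the minimum, was 4.52, 4.42 and 4.58. Of these markers, Ly6c2 was higher at both doses as S100a8 and S100a9 were, and the part of monocytes in their differences was not tested.

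**Figure D4:**
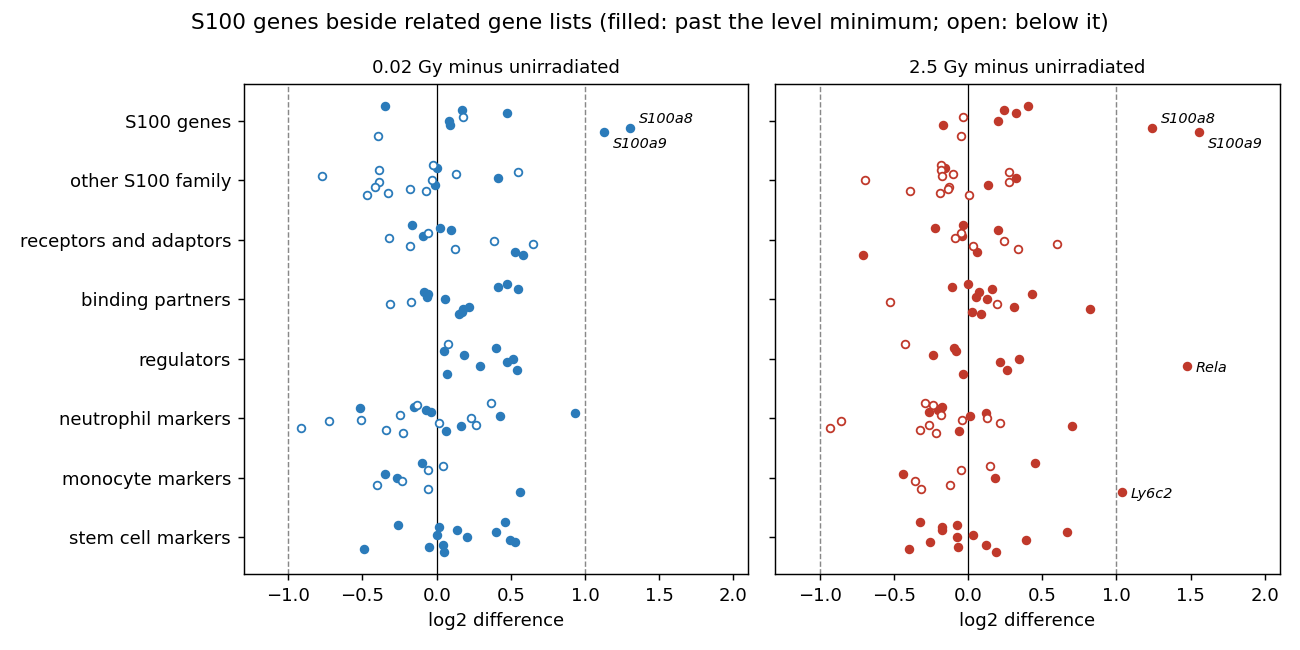
Differences from the unirradiated array (log2, horizontal axis) at 0.02 Gy (left) and 2.5 Gy (right); each point is a gene, grouped by list, filled where its mean passed the level minimum and open where it did not, with dashed lines at 2-fold. Of the genes drawn, S100a8 (1.30) and S100a9 (1.12) pass 2-fold at 0.02 Gy. At 2.5 Gy S100a8 (1.24), S100a9 (1.56), Rela (1.47) and Ly6c2 (1.04) do. Of all genes past the minimum, 1.33% were 2-fold higher and 1.14% lower at 0.02 Gy, and 1.15% and 0.578% at 2.5 Gy. The lists were chosen with earlier results of these data known.

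The genes nearest in pattern to S100a8 and S100a9 were taken as those with the smallest Euclidean distance between their 2 differences from unirradiated. The ranking used 3 arrays and 9927 genes with a mean past the level minimum, outside predicted genes and near-identical families. For S100a8 the nearest were Limd2 (1.32 at 0.02 Gy and 1.20 at 2.5 Gy), the nucleotide sugar transporter gene Slc35a3 (1.34 and 1.14), the small Cajal body RNA Scarna13 (1.19 and 1.17), the ubiquitin-conjugating enzyme gene Ube2z (1.41 and 1.35) and Rmnd5a (1.41 and 1.12). For S100a9 they were the amino acid transporter gene Slc38a2 (1.03 and 1.43), Rsl1d1 (1.14 and 1.37), Btg2 (0.84 and 1.55), Gstm2 (1.21 and 1.84) and the chemokine gene Cxcl10 (0.82 and 1.46). S100a9 was itself number 21 in nearness to S100a8, and S100a8 number 9 to S100a9, at a distance of 0.36. All these genes share the unirradiated array, where each of them is lowest. On that array Slc35a3 (4.09), Rmnd5a (3.71), Btg2 (4.40), Gstm2 (3.69) and Cxcl10 (4.42) lay below the level minimum. Their means passed it only through the irradiated arrays. Signal over background is unknown below the minimum, so the differences of these genes are listed for nearness only.

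**Figure D5:**
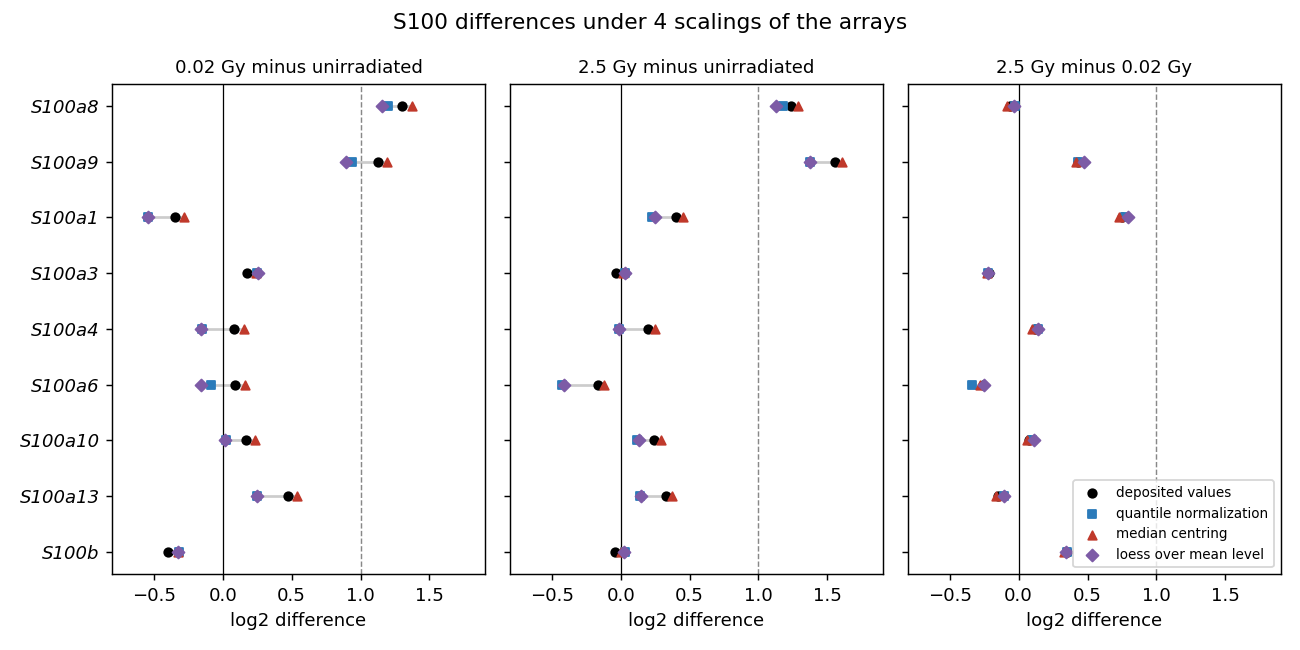
Differences (log2, horizontal axis) of the 9 measured S100 genes in the 3 comparisons, for the deposited values and 3 other scalings of the arrays; the dashed line marks 2-fold. S100a8 stays past 2-fold at both doses, S100a9 drops to 0.94 and 0.90 at 0.02 Gy under quantile normalization and loess, and S100a1 stays between 0.73 and 0.79 in 2.5 Gy minus 0.02 Gy.

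Over the 4 scalings, S100a8 ran from 1.16 to 1.37 at 0.02 Gy and from 1.13 to 1.29 at 2.5 Gy, and S100a9 from 0.90 to 1.19 and from 1.37 to 1.61. In 2.5 Gy minus 0.02 Gy S100a8 ran from −0.08 to −0.02 and S100a9 from 0.41 to 0.47. Of the 27 differences of the 9 genes, 22 kept 1 sign under every scaling and 5 took both, each of the 5 belonging to S100a3, S100a4, S100a6 or S100b. Over all probe sets the pairwise correlation of the arrays lay between 0.957 and 0.965, a figure taken across genes, which are no replicates.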

How the data were processed

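Gene expression was measured on 3 arrays, 1 per dose, from biotin-labelled target made by the Affymetrix whole-transcript sense assay, per the labels' protocols. The deposited values are log2 values, 1 per probe set and array, from 1.553 to 12.4; the scale was read from the values. Partek is named without version or role, per the submitters' processing notes, and the sources used here do not state background correction, normalization or summarisation. Array medians were 4.60, 4.54 and 4.55 (0, 0.02 and 2.5 Gy). No scanner files were used, so signal over background is unknown, and the number of arrays limits every precision.

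Gene names came from GEO's platform table through Entrez identifiers: 23185 probe sets had 1 symbol, 0 had several and 2021 had none. Of 145 listed genes 132 were measured. Differences were taken on the log2 scale and counted at 2-fold among genes with a mean of at least 4.553; no test was run. Genes named are the S100 genes, their family, receptors, partners and regulators, the most different members and fixed markers of each other list, and the 5 nearest genes in pattern. The neutrophil, T and NK cell and other alarmin genes past the level minimum are named as well. Members and lists were chosen with earlier results of these data known. Alternatives were quantile normalization, median centring, loess (span 0.3), level minima and fold sizes. The counting was tested on simulated data with seeded differences far larger than those of the S100 genes, so that test does not cover differences near 2-fold. Promoter windows and gene order are RefSeq's, build GRCm38.p6. Python 3.11.15, pandas 2.3.3 and statsmodels 0.14.6 were used.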

Additional observations from a re-analysis of the deposited data

How the results depend on the processing

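No paired analysis was possible because no dose was repeated. The number of S100 genes at least 2-fold higher was 2 at each dose. At 0.02 Gy it was 1 after quantile normalization and 1 after loess, where S100a9 lay at 0.94 and 0.90. At 3-fold it was 0 at both doses, the largest difference being that of S100a9 at 2.5 Gy, at 2.94-fold. At 1.5-fold S100a1 made it 1 in 2.5 Gy minus 0.02 Gy, where it had been 0. The other level minima left these counts at 2, 2 and 0, and all 81 member differences under other scalings stayed within the like-level robust SD of their deposited value.

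Background counts of all named genes are written as higher/lower. In 0.02 Gy minus unirradiated they were 154/132, with 259/272 for no level minimum, 94/56 for the 75th percentile (5.463), 869/547 for 1.5-fold and 20/37 for 3-fold. In 2.5 Gy minus unirradiated they were 133/67, and under the same settings 218/148, 84/29, 704/399 and 32/13. In 2.5 Gy minus 0.02 Gy they were 167/123, then 284/231, 84/68, 666/657 and 45/21. Higher genes were fewer than lower at 0.02 Gy after quantile normalization (126 and 157) and loess (123 and 148), and more after median centring (200 and 108). The distance by the larger gap kept all 5 genes nearest to S100a8 and 4 of those nearest to S100a9.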

Other observations

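Markers of other blood lineages were read on the same arrays as S100a8 and S100a9, and none was at least 2-fold higher or lower in any comparison. Of all genes past the level minimum, no more than 1.44% were 2-fold higher in any comparison, and no more than 1.14% lower. Of 7 measured erythroid genes, 4 passed the level minimum, with median differences of −0.02 at 0.02 Gy and 0.03 at 2.5 Gy. Car2, a carbonic anhydrase gene, was at 8.47, 9.11 and 8.97 (log2 at 0, 0.02 and 2.5 Gy), while the adult globin gene Hbb-bs lay at 2.72, 2.32 and 2.20. Of 8 megakaryocyte and platelet genes, 7 passed, with medians of 0.21 and −0.17; Selp, which encodes P-selectin, was at 4.99, 5.48 and 4.61.

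Of 5 measured B cell genes, 2 passed the minimum, with medians of 0.00 and 0.08. Of 8 T and NK cell genes, 2 passed, with medians of −0.33 and −0.41; these were the NK-associated genes Nkg7 (6.50, 5.97 and 5.88) and Klrb1c (7.04, 6.91 and 6.84). The 13 stem cell markers had medians of 0.05 and −0.08. Of the 13, 9 were above 0 at 0.02 Gy and 5 at 2.5 Gy, where 8 were below 0. Among all genes past the minimum, 54.2% and 53.4% were above 0. Hlf, a transcription factor gene of stem cells, had the highest 2.5 Gy difference among them (0.67; 7.21, 7.62 and 7.88), and Slamf1 the lowest at both doses (−0.49 and −0.40). Meis1, another transcription factor gene, was at 7.05, 7.58 and 6.79, and Cd34 at 7.04, 7.498 and 6.72, so both were highest at 0.02 Gy and lowest at 2.5 Gy.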
